A study of Mus musculus with 12 samples.

Results

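Iron uptake, storage and transport were followed through 10 genes in oligodendrocyte precursor cells (OPCs) and neurons of the mouse cortex. The genes were Trf, Tfrc and Slc11a2 (uptake), Fth1, Ftl1 and Ncoa4 (storage and its release), Slc40a1 and Cp (export), and Hmox1 and Ireb2 (heme breakdown and control). They were chosen by name for their function, and all 10 of 10 were found among the 30165 genes of the OPC table and among the 17918 genes of the neuron table. The study compared control (ctl) mice, labelled WT, with dKO mice, in which NG2-CreERT2 was crossed to Cav1.2 fl/fl and Cav1.3 fl/fl so that tamoxifen removes the L-type calcium channel genes Cacna1c and Cacna1d from NG2-expressing cells. Tamoxifen was given at 100 mg/kg on postnatal days 7 and 8. The age at collection of these libraries, and whether the ctl mice carried Cre or floxed alleles, are not given in the sources used here. NG2 is also made by pericytes, and this Cre is not directed at neurons. OPCs were collected on beads against CD140, NG2 and O4, and neurons were the unbound cells after removal of those carrying ACSA-2, CD31, CD11b or O4. Each group had 3 libraries, each from the pooled cells of 2 mice, and the total count was 14935963 to 19812274 per OPC library and 15052892 to 16344601 per neuron library.

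Iron travels in the blood bound to transferrin (Trf), enters cells with the transferrin receptor (Tfrc) and leaves the endosome through the transporter DMT1 (Slc11a2). Inside the cell it is held in ferritin, a shell of heavy (Fth1) and light (Ftl1) chains, and Ncoa4 delivers ferritin to the lysosome, where the iron is set free. Ferroportin (Slc40a1) is the known iron exporter, and the ferroxidase ceruloplasmin (Cp) oxidizes the iron that leaves. Heme oxygenase 1 (Hmox1) frees iron from heme. Ireb2 encodes iron regulatory protein 2, which binds hairpins in messenger RNAs, called iron-responsive elements, when iron is low. Binding in the 5′ untranslated region (UTR) blocks translation, and binding in the 3′ UTR protects the RNA from decay. Oligodendrocytes are known as the cells of the brain richest in iron and as its main source of transferrin, and the vessels of the brain take up iron through the transferrin receptor.

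The hairpins are shown because they mark where this control acts: for genes with one in the 5′ UTR the RNA count need not follow the protein. The pattern searched was an unpaired C, 5 bases, a loop of 6 bases that starts with CAGTG, and 5 bases that pair with the first 5, with G-T pairs allowed, on the RNA strand. In 1 coding transcript per gene it was found in 4 of the 10 genes. These are the 29-base stretches, read from the GENCODE M21 transcripts on GRCm38, with the loop in capitals.
Fth1, 5′ UTR, exon 1, chr19:9982732-9982760, plus strand: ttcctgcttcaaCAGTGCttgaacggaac
Ftl1, 5′ UTR, exon 1, chr7:45459779-45459807, minus strand: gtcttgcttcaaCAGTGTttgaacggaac
Slc40a1, 5′ UTR, exon 1, chr1:45925465-45925493, minus strand: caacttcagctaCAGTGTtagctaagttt
Tfrc, 3′ UTR, exon 19, chr16:32631219-32631247, plus strand: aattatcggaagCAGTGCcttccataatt
Tfrc, 3′ UTR, exon 19, chr16:32631598-32631626, plus strand: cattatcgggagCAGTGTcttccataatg
Tfrc, 3′ UTR, exon 19, chr16:32631663-32631691, plus strand: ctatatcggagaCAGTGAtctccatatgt
Tfrc, 3′ UTR, exon 19, chr16:32631710-32631738, plus strand: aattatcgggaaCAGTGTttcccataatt
Among 21901 protein-coding genes the pattern stood in a 5′ UTR of 0.142% and in a 3′ UTR of 0.589%. This background counts a gene when any of its coding transcripts holds the pattern, whereas the 10 genes were searched in 1 transcript each. The sites lie in the 5′ UTR of both ferritin chains and of ferroportin, and Tfrc holds 4 of them in its 3′ UTR. No match in the other 6 genes says only that these letters are not in those transcripts.

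The sorted cells were first held against their markers. In the ctl OPC libraries, Pdgfra was at 15.7 to 43.2 TPM (read counts per gene length, scaled to the same total in each library). There the 12 OPC markers summed to 1609 to 2522 CPM (counts scaled to the same total in each library, with no account of length) and the 14 oligodendrocyte markers to 70390 to 81330 CPM. In the ctl neuron libraries, the 12 neuron markers summed to 745 to 1038 CPM and the 12 endothelial markers to 28040 to 30940 CPM, and the neuronal gene Rbfox3 was at 2.86 to 4.12 TPM. Haemoglobin and other red cell genes summed to 11260 to 47030 CPM there. The 8 choroid plexus markers summed to 17870 to 38770 CPM in ctl OPC libraries and to 8798 to 16320 CPM in ctl neuron libraries. Markers of oligodendrocytes and of choroid plexus therefore exceeded those of OPCs in the first fraction, and markers of endothelial cells, choroid plexus and red cells exceeded those of neurons in the second. The levels below are levels of these fractions, and in such bulk samples a change in the number of cells of a type and a change of RNA per cell cannot be told apart. The targeted genes had 373, 411 and 439 (Cacna1c) and 251, 190.5 and 255 (Cacna1d) normalized counts in ctl OPC libraries and 252, 337 and 312 and 92.8, 153 and 232 in dKO, below every ctl library except for Cacna1d in dKO replicate 3, and these counts also hold exons outside the deleted part. The neuron library dKO replicate 1 stood apart, with a chi-square per gene of 106 and 119 against the other dKO libraries, which differed from each other by 22.8. The OPC library dKO replicate 2 held 0 counts of 4 Y-linked genes, whereas the other OPC libraries held 4130 to 5045. Its Xist count was 13590, against 2.93 to 20.25 in the others, so sex was not balanced between the OPC groups. Fits without this library leave out the only OPC library of this kind. In the neuron fraction ctl replicate 1 and dKO replicate 1 held 6031 and 5274 counts of the Y-linked genes and the other libraries at most 57.8.

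In the ctl OPC libraries the heavy ferritin chain Fth1 had the highest level of the 10 genes. It stood at 5497, 5647 and 5691 TPM, the 99.9th percentile of the genes tested. Trf followed at 3830, 5577 and 4452 TPM, and its range overlapped that of Fth1. This rests on the deposited gene lengths, 3469 bases for Fth1 and 3320 for Trf. The transcripts used in the hairpin search hold 929 and 2571 bases, so the order and its gaps may change with the length used. In normalized counts, with no account of length, Fth1 had 92848, 92448 and 94171 and Trf 61923, 87379 and 70503, without overlap. The light chain Ftl1 was next at 461 ± 35.1 TPM (SD, n = 3), which was 10 times below Trf. After a further gap came Tfrc at 69.2 ± 3.37 TPM and Hmox1 at 49.1 ± 9.87 TPM (SD, n = 3 each), and their ranges did not overlap. Slc11a2, Cp and Ireb2 stood close together at 33.2 ± 3.38, 32.5 ± 4.07 and 29.1 ± 1.82 TPM (SD, n = 3 each), with overlapping ranges between neighbours. Ncoa4 followed at 24.0 ± 2.68 TPM, and ferroportin (Slc40a1) was lowest at 11.9 ± 2.54 TPM (SD, n = 3 each). By TPM on these gene lengths, the OPC fraction was thus richest in RNA for iron storage and for transferrin, and poorest in RNA for the exporter.

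The order was another in the neuron fraction, where the deposited TPM values rest on RefSeq transcripts and another way of counting, so that only orders within a fraction are compared. Fth1 was again first, at 4625, 3667 and 2816 TPM in the ctl libraries. Ftl1 was second at 2364 ± 172 TPM (SD, n = 3), 1.57 times below Fth1. Slc40a1, last in the OPC fraction, ranked after the ferritin chains here at 631 ± 52.8 TPM, the 98.8th percentile, and Tfrc came next at 299 ± 14 TPM (SD, n = 3 each). Ncoa4 followed at 256 ± 11 TPM. Trf was at 213, 115 and 79.3 TPM, the widest spread of the 10 genes among the ctl neuron libraries (coefficient of variation of normalized counts 45.7%, against a median of 15% over all genes tested). Its range overlapped that of Cp at 82.2 ± 9.63 TPM. Ireb2 at 19.1 ± 3.02 and Slc11a2 at 16.1 ± 1.63 TPM overlapped, and Hmox1 was lowest at 9.28 ± 0.475 TPM (SD, n = 3 each). Besides Fth1, the front of this order held the light chain, the exporter and the uptake receptor, beside endothelial markers such as Itm2a at 10100 to 11900 TPM and Cldn5 at 2250 to 2840 TPM. In the same ctl libraries the red cell gene Hba-a2 was at 21500 to 90600 TPM and the choroid plexus gene Ttr at 12300 to 26500 TPM. The part of endothelial, red cell and choroid plexus RNA in these levels was not tested.

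**Figure D1:**
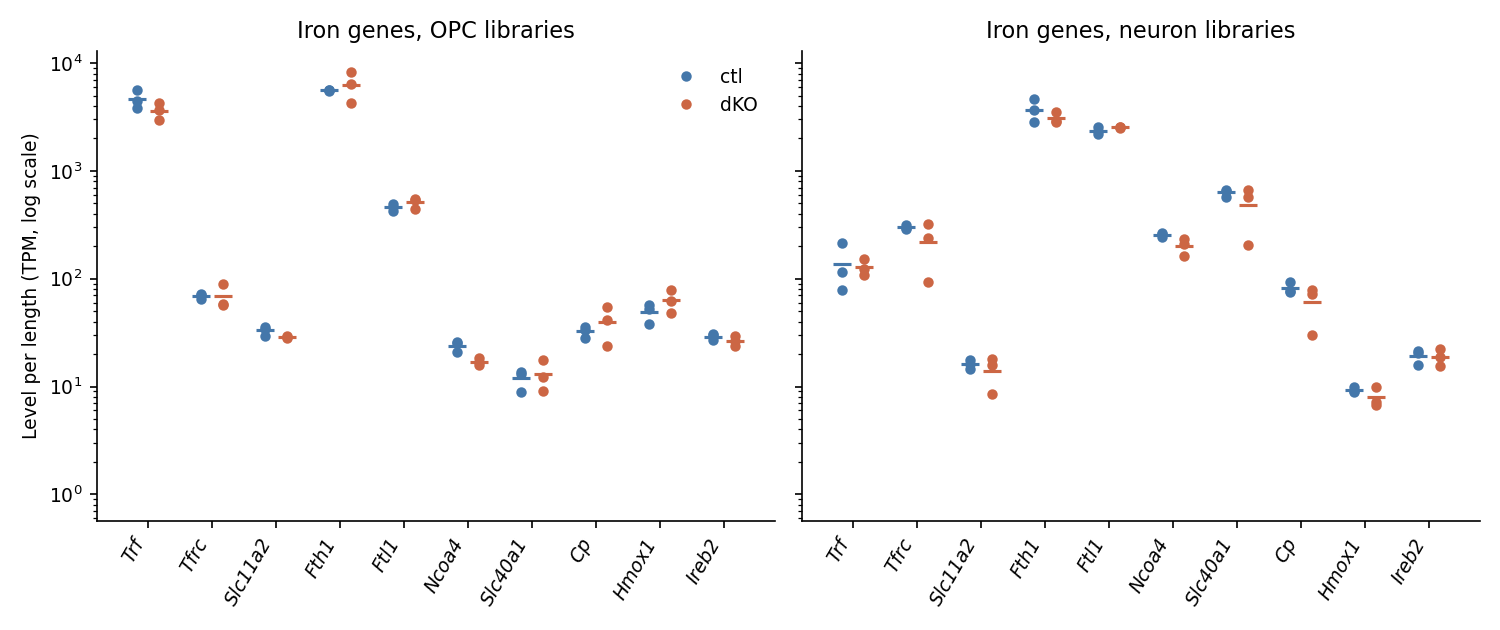
Level of each iron gene in TPM (log scale) in the 3 ctl (blue) and 3 dKO (orange) libraries of each fraction, with a line at the group mean. Fth1 is highest in both fractions, Slc40a1 is lowest in the ctl OPC libraries at a mean of 11.9 TPM and follows the ferritin chains in the ctl neuron libraries at 631 TPM, and the neuron library at 206 TPM of Slc40a1 and 92.9 TPM of Tfrc is dKO replicate 1.

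Next, dKO was compared with ctl in each fraction to ask whether the loss of the calcium channels in NG2 cells goes with another level of these genes. All 10 genes passed the filter, a mean normalized count of at least 10, in both fractions. None of the 10 had an adjusted p under 0.05 in edgeR's quasi-likelihood test, in either fraction. In OPCs 1 gene of all 17364 tested passed (0.00576%), and in neurons 0 of 14352 did (0%). DESeq2 also called 0 of the 10 genes in either fraction, and called 291 genes in OPCs and 89 in neurons over all. At an unadjusted p under 0.05, 1 of 10 iron genes passed in OPCs, against 11.5% of all genes, and 1 of 10 in neurons, against 9% of all genes. Both times it was Ncoa4, lower in dKO, a call made for 5.27% of all genes in OPCs and 4.04% in neurons. In OPCs it held in all 6 fits that left out 1 library and with the replicate number as a block, where Hmox1 also passed (2 of 10 genes, against 11.7% of all genes). In neurons it was lost with the block (0 of 10 genes, against 8.95% of all genes), without the filter and in 5 of 6 fits that left out 1 library. Of these 6 fits, the one without dKO replicate 1 kept it (1 of 10 genes, against 8.29% of all genes). DESeq2, RLE size factors and the top transcript of each iron gene alone also kept it, where 10.7%, 9% and 9.01% of all genes passed. The libraries of the groups did not overlap for 2 of 10 iron genes in OPCs (17% of all genes) and 1 of 10 in neurons (15.3% of all genes). Of these, Ncoa4 was lower in all dKO libraries of both fractions, as were 9.55% of all genes in OPCs and 7.82% in neurons. The median log2 fold change of the 10 genes was 0.12 in OPCs, with 6 above and 4 below zero, and -0.22 in neurons, with 2 above and 8 below, while that of all genes tested was 0.0055 and 0.0075. These shares do not set the 10 genes apart from the background.

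**Figure D2:**
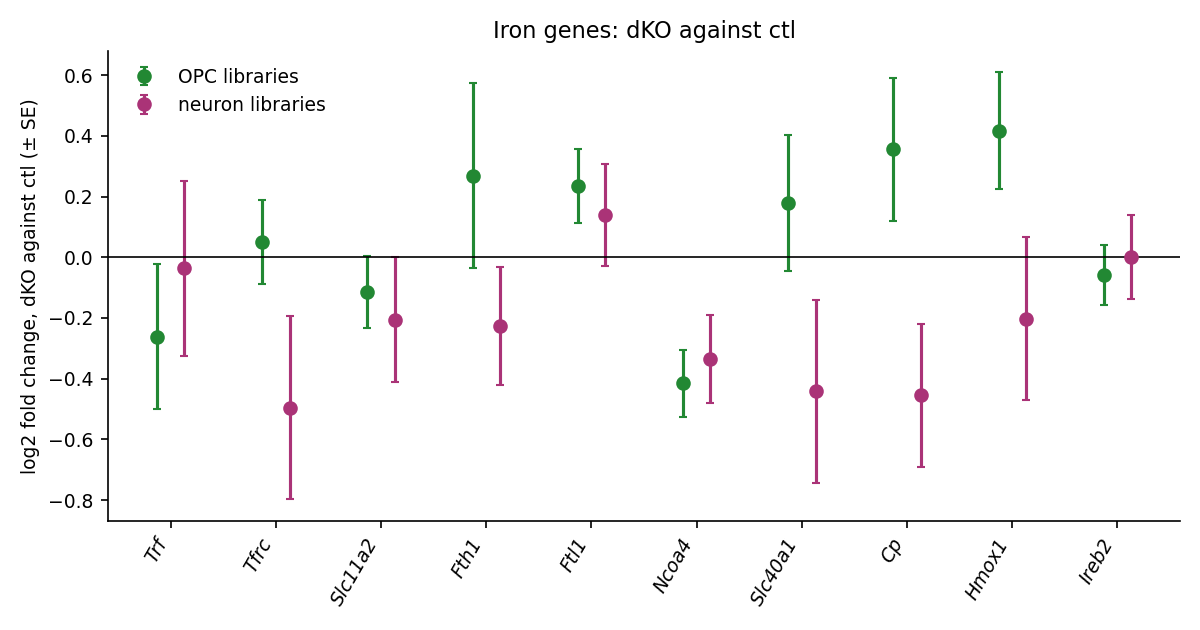
Log2 fold change of dKO against ctl with its standard error for the 10 iron genes, in OPC libraries (green) and neuron libraries (purple), from edgeR's fit with 3 libraries per group. Ncoa4 lies at -0.42 in OPCs and -0.34 in neurons, and no gene has an adjusted p under 0.05 in either fraction.

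Of the uptake genes, none passed in OPCs. Trf, the carrier, had normalized counts of 61923, 87379 and 70503 in ctl and 75272, 51952 and 56072 in dKO OPC libraries. The groups overlapped, with dKO replicate 1 among the ctl values, and the log2 fold change was -0.26 ± 0.24 (SE, adjusted p = 0.70), with -0.12 when ctl replicate 2 was left out and -0.44 when dKO replicate 1 was. Summed oligodendrocyte markers were at 116%, 96.6% and 67.6% of the ctl mean in the dKO libraries, and Trf at 103%, 70.9% and 76.5%. Tfrc, the receptor, had 2170, 1910 and 2064 normalized counts in ctl and 1920, 1898 and 2544 in dKO. It was highest in dKO replicate 3, and the log2 fold change of 0.050 ± 0.14 (SE, adjusted p = 0.92) turned to -0.11 without it and was 0.12 without dKO replicate 2. Slc11a2, the endosomal transporter, had 1060, 1078 and 892 counts in ctl and 993, 964 and 844 in dKO, with a log2 fold change of -0.11 ± 0.12 (SE, adjusted p = 0.75) that was -0.056 without dKO replicate 3 and -0.20 without ctl replicate 3.

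In the neuron fraction the largest log2 fold change among the 10 genes was that of Tfrc, and its size moved with single libraries. Tfrc had 13363, 12516 and 14305 normalized counts in ctl and 5168, 13324 and 10015 in dKO. The libraries dKO replicates 1 and 3 lay below every ctl library, dKO replicate 2 lay within the ctl range, and the log2 fold change was -0.50 ± 0.30 (SE, adjusted p = 0.66). Without dKO replicate 1 it was -0.20, and without dKO replicate 2 it was -0.81 and had an unadjusted p under 0.05, as 11% of all genes had in that fit. Ferroportin (Slc40a1) was also lowest in dKO replicate 1, with 18596, 16839 and 21833 counts in ctl and 7707, 15884 and 18602 in dKO. Its log2 fold change of -0.44 ± 0.30 (SE, adjusted p = 0.69) shrank to -0.15 when dKO replicate 1 was left out and grew to -0.69 when dKO replicate 3 was. Cp had 3536, 2870 and 3254 counts in ctl and 1516, 2637 and 2898 in dKO, a log2 fold change of -0.45 ± 0.24 (SE, adjusted p = 0.59), and -0.22 without dKO replicate 1. It was -0.63 without dKO replicate 3 and -0.565 on its top transcript alone, and both of these fits gave an unadjusted p under 0.05, as they did for 7.43% and 9.01% of all genes. In dKO replicate 1, Tfrc was at 38.6%, Slc40a1 at 40.4% and Cp at 47.1% of the ctl mean, and the summed endothelial markers were at 48.4%, the microglia markers at 37.2% and the oligodendrocyte markers at 48.7%. Of the 12 endothelial markers 12 had a log2 fold change below zero, with a median of -0.43, 4 had an unadjusted p under 0.05, and none was at 0. They summed to 28040 to 30940 CPM in ctl and 15090 to 25570 CPM in dKO. The same library had 181% of the ctl mean of neuron markers, 341% of that of choroid plexus markers and 241% of that of red cell genes. The part of these cells in the values of Tfrc, Slc40a1 and Cp was not tested.

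Trf in neurons had 4060, 2262 and 1718 counts in ctl and 2692, 2297 and 2856 in dKO. The groups overlapped, with a log2 fold change of -0.036 ± 0.29 (SE, adjusted p = 0.98), and without ctl replicate 1 it was 0.39. That ctl library also had 170% of the ctl mean of oligodendrocyte markers. Slc11a2 had 478, 414 and 518 counts in ctl and 307, 422 and 494 in dKO, again lowest in dKO replicate 1, with a log2 fold change of -0.21 ± 0.21 (SE, adjusted p = 0.78) that was -0.036 without this library and -0.37 without dKO replicate 3. Of its estimated counts 63.9% were on the transcript NM_008732 and 16.3% on NM_001146161, and the first alone gave a log2 fold change of -0.080.

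**Figure D3:**
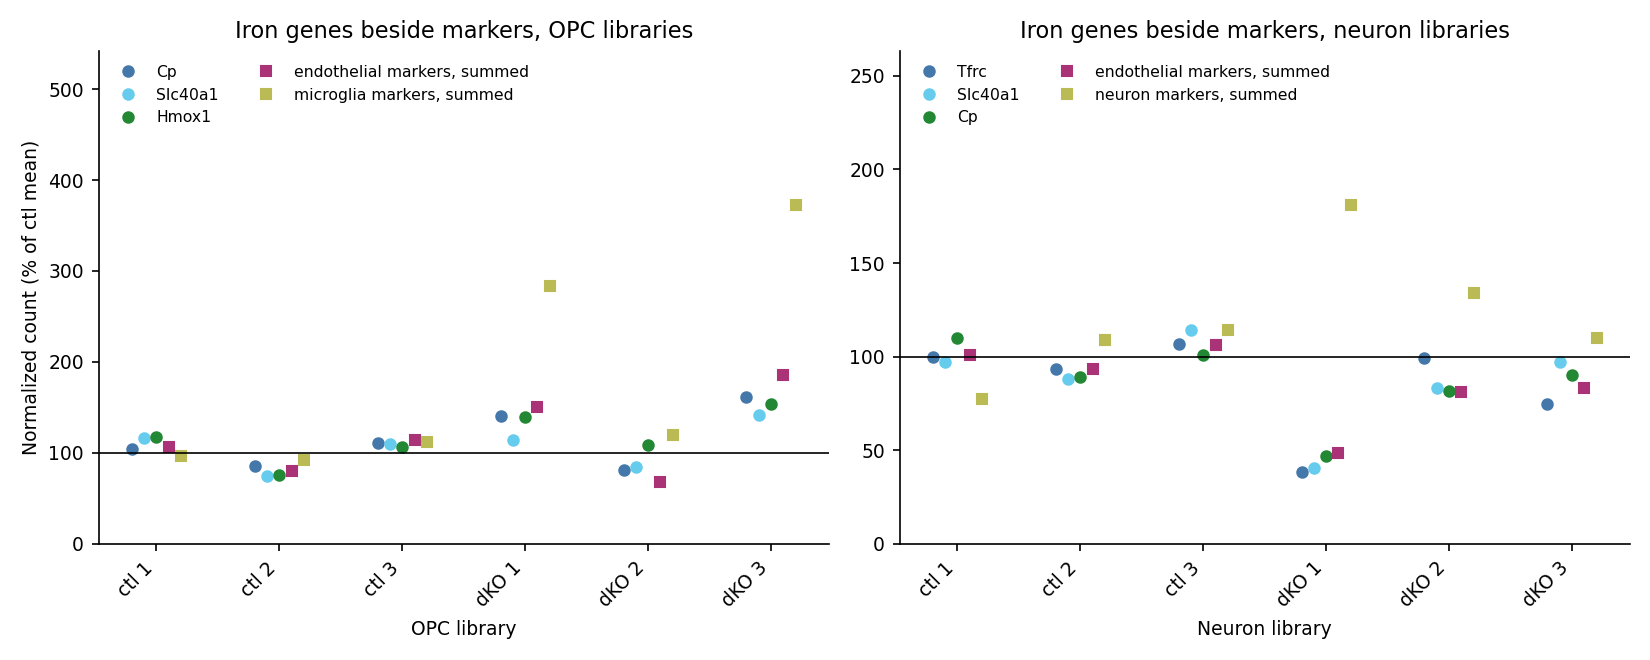
Normalized counts of iron genes (circles) and of summed marker lists (squares) in each library, in percent of the mean of the 3 ctl libraries, for OPCs (left) and neurons (right). In the OPC fraction Cp and the endothelial markers are highest in dKO replicate 3, at 162% and 186%, and in the neuron fraction Tfrc, Slc40a1, Cp and the endothelial markers lie at 38.6% to 48.4% in dKO replicate 1.

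In OPCs neither the export genes nor Hmox1 had an adjusted p under 0.05. Cp had 1553, 1265 and 1643 normalized counts in ctl OPC libraries and 2096, 1208 and 2410 in dKO. It was highest in dKO replicates 3 and 1 and lowest in dKO replicate 2, and the log2 fold change was 0.36 ± 0.24 (SE, adjusted p = 0.58), with 0.14 when dKO replicate 3 was left out and 0.60 when dKO replicate 2 was. Over the 6 libraries Cp, the summed endothelial markers and the 8 summed markers of pericytes and mural cells had the same order from highest to lowest. The share of all genes with this order was not counted. The pericyte and mural markers stood at 1151, 895 and 1319 CPM in ctl and 1468, 757 and 1693 CPM in dKO. The endothelial markers stood at 150%, 67.9% and 186% of the ctl mean in the dKO libraries and Cp at 141%, 81.2% and 162%. Slc40a1 had 593, 380 and 564 counts in ctl and 583, 435 and 726 in dKO, a log2 fold change of 0.18 ± 0.22 (SE, adjusted p = 0.80), with -0.021 without dKO replicate 3 and 0.35 without dKO replicate 2. Hmox1 had 483, 313 and 440 counts in ctl and 571, 448 and 635 in dKO. Here 2 dKO libraries lay above all ctl libraries and dKO replicate 2 within them, with a log2 fold change of 0.42 ± 0.19 (SE, adjusted p = 0.45), and 0.26 without ctl replicate 2. Without dKO replicate 2, Hmox1 and Cp as well as Ncoa4 had an unadjusted p under 0.05, 3 of 10 genes against 13.3% of all genes in that fit, and none an adjusted one. Hmox1 also had an unadjusted p under 0.05 without the filter and without ctl replicate 1, with 2 of 10 genes in each fit against 9.15% and 9.87% of all genes. All 14 microglia markers were tested in OPCs. Their log2 fold changes had a median of 1.32, with 14 at an unadjusted p under 0.05 and 0 at an adjusted one. They summed to 276 to 348 CPM in ctl and 356 to 1206 CPM in dKO, at 283%, 120% and 372% of the ctl mean, and none was at 0. The 8 markers of border macrophages summed to 52.4 to 63.0 CPM in ctl and 61.9 to 136 CPM in dKO, with Clec12a at 0.040 to 0.098 TPM in ctl. Of the 12 astrocyte markers, 11 were higher in dKO OPC libraries at an unadjusted p under 0.05, with sums of 1171 to 2076 CPM in ctl and 1897 to 5755 CPM in dKO. Genes of the response to dissociation, 13 tested with 2 higher at an unadjusted p under 0.05, summed to 9103 to 10020 CPM in ctl and 8434 to 12660 CPM in dKO. The part of these cells and of this response in Cp, Slc40a1 and Hmox1 was not tested. In neurons Hmox1 had 120, 113 and 125 counts in ctl and 108, 117 and 86.0 in dKO, with a log2 fold change of -0.20 ± 0.27 (SE, adjusted p = 0.85) that was -0.30 to -0.084 with single libraries left out.

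Of the ferritin chains, only the heavy one spread widely within the dKO OPC group, while Ftl1 had a coefficient of variation of 11.2% there. Fth1 had 92848, 92448 and 94171 normalized counts in ctl, a coefficient of variation of 0.968% against a median of 14% over all genes tested, and 151100, 117100 and 68464 in dKO, a coefficient of variation of 37.0% against a median of 16.6%. The dKO libraries lay on either side of the ctl libraries, so that the log2 fold change of 0.27 ± 0.31 (SE, adjusted p = 0.77) was -0.0053 when dKO replicate 1 was left out and 0.52 when dKO replicate 3 was, the latter with an unadjusted p under 0.05, as 11.2% of all genes had in that fit. Oligodendrocyte markers were highest in dKO replicate 1 and lowest in dKO replicate 3, as Fth1 was. Ftl1 had 2772, 2931 and 3163 counts in ctl and 3925, 3200 and 3312 in dKO. All dKO libraries lay above all ctl libraries, by little in dKO replicate 2, and the log2 fold change was 0.24 ± 0.12 (SE, adjusted p = 0.50), with 0.14 without dKO replicate 1. On the TPM scale the groups overlapped, with 425, 464 and 495 TPM in ctl and 555, 448 and 537 TPM in dKO. The light chain has near copies in the genome, 2 of which were in the OPC table, Ftl1-ps1 with 55 to 105 raw counts per library and Ftl2-ps with 0 to 6, so its count is uncertain. Summed with them, Ftl1 differed by 0.23 on the log2 scale (exact two-sided permutation test, p = 0.1, the smallest p that 3 libraries against 3 can give). Ftl1-ps1 itself had a log2 fold change of 0.28 ± 0.29 (SE, adjusted p = 0.75). Fth-ps2, a copy of the heavy chain, held 0 to 9 raw counts per library and, like Ftl2-ps, did not pass the filter. Fth1 summed with it differed by 0.19 on the log2 scale (exact two-sided permutation test, p = 0.7).

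In neurons Fth1 had 29659, 24337 and 20552 normalized counts in ctl and 23651, 18161 and 21897 in dKO, a log2 fold change of -0.23 ± 0.19 (SE, adjusted p = 0.75). Without ctl replicate 1, its highest library, it was -0.080, and without ctl replicate 3 it was -0.35. Ftl1 had 15715, 17518 and 16661 counts in ctl and 21551, 16561 and 16846 in dKO, where dKO replicate 1 alone stood above the ctl libraries. On the TPM scale dKO replicate 1 lay within the ctl range instead, with 2357, 2539 and 2196 TPM in ctl and 2477, 2549 and 2581 TPM in dKO. Its log2 fold change of 0.14 ± 0.17 (SE, adjusted p = 0.83) was 0.0065 without that library, which also had the most red cell RNA. The copy Ftl1-ps2 held 55 to 89 raw counts per neuron library, with a log2 fold change of 0.072 ± 0.34 (SE, adjusted p = 0.96), and Ftl1 summed with it differed by 0.13 on the log2 scale (exact two-sided permutation test, p = 0.5). The ratio of heavy to light chain counts within a library needs no scaling between libraries. On the log2 scale it was 4.98 ± 0.0851 in ctl and 4.94 ± 0.498 in dKO OPCs (SD, n = 3 each, exact two-sided permutation test, p = 1.0). In neurons it was 0.56 ± 0.32 in ctl and 0.22 ± 0.14 in dKO (SD, n = 3 each, exact two-sided permutation test, p = 0.2). The log2 ratio of Tfrc to Slc40a1, uptake receptor to exporter, was 2.02 ± 0.27 in ctl and 1.89 ± 0.21 in dKO OPCs (SD, n = 3 each, exact two-sided permutation test, p = 0.5), and -0.50 ± 0.09 in ctl and -0.57 ± 0.32 in dKO neurons (SD, n = 3 each, exact two-sided permutation test, p = 0.8). The groups overlapped for all 4 ratios, and the test cannot give a p under 0.1 with 3 libraries against 3. The largest difference, -0.35 for Fth1 to Ftl1 in neurons, exceeded the SD of either group and was -0.17 without ctl replicate 1.

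Ncoa4, the receptor that takes ferritin to the lysosome, had 955, 1112 and 1156 normalized counts in ctl and 840, 789 and 786 in dKO OPC libraries. All dKO libraries lay below all ctl libraries, and the log2 fold change was -0.42 ± 0.11 (SE, adjusted p = 0.29). In neurons it had 7626, 7335 and 8772 counts in ctl and 6185, 6667 and 5962 in dKO, again without overlap, with a log2 fold change of -0.34 ± 0.14 (SE, adjusted p = 0.55). Leaving out any 1 library kept the log2 fold change between -0.49 and -0.37 in OPCs and between -0.39 and -0.25 in neurons. Without dKO replicate 1 it was -0.33 in neurons. On the TPM scale dKO replicate 1 was the lowest neuron library, with 261, 244 and 265 TPM in ctl and 162, 234 and 208 TPM in dKO, and the groups did not overlap there either. The summed endothelial markers of the neuron fraction were also below every ctl library in all dKO libraries, at 48.4%, 81.2% and 83.1% of the ctl mean, as Ncoa4 was at 78.2%, 84.3% and 75.4%. In OPCs the oligodendrocyte markers had a median log2 fold change of -0.42, and their sums overlapped between the groups. The part of these cells in the values of Ncoa4 was not tested.

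In OPCs, however, the reads of Ncoa4 may be divided with a copy of nearly the same sequence. Ncoa4-ps (ENSMUSG00000021908), annotated as a processed pseudogene, had 442, 468 and 454 normalized counts in ctl and 705, 612 and 701 in dKO OPC libraries. Here all dKO libraries lay above all ctl libraries, the opposite of Ncoa4, with a log2 fold change of 0.56 ± 0.11 (SE, adjusted p = 0.25). In GENCODE M21 the copy is 1 exon of 1878 bases and matches the coding sequence of the Ncoa4 transcript ENSMUST00000163336 from its first to its last base, positions 161 to 2038, with no gap and 2 differences (99.9% identity). The longest run without a difference was 1311 bases, and 82.6% of windows of 150 bases, the length of 1 read, held no difference. Reads were paired, and the parent transcript has 10 exons and 4065 bases, so mates and splice junctions can also tell the places apart. Within the coding sequence the only letters that tell the copy from its parent are therefore those in capitals here, shown with 20 bases on either side, on GRCm38 and the plus strand.
Ncoa4, exon 8, chr14:32176516-32176556: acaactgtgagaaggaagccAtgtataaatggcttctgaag
Ncoa4-ps, chr12:119262269-119262309: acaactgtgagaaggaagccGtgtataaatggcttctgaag
Ncoa4, exon 8, chr14:32176737-32176777: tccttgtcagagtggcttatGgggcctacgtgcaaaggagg
Ncoa4-ps, chr12:119262490-119262530: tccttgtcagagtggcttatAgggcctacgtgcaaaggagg
Counted from the first base of that transcript, with the parent's base first, these are A1472G and G1693A.

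Summed over gene and copy, the ctl and dKO libraries overlapped. How reads that fit both places were counted is not given in the sources used here, so the sum need not hold all of them. The log2 of the summed normalized counts was 10.45, 10.63 and 10.65 in ctl and 10.59, 10.45 and 10.54 in dKO OPC libraries, a difference of -0.048 (exact two-sided permutation test, p = 0.6). The share of these reads given to the copy was 31.6%, 29.6% and 28.2% in ctl and 45.6%, 43.7% and 47.1% in dKO. The 95% Wilson intervals reached from 26.0% to 34.0% over the ctl libraries and from 41.2% to 49.8% over the dKO libraries, which covers counting error only. The mean share was 15.6 percentage points higher in dKO. With Ncoa4 lower and the copy higher in every dKO library the shares could not overlap, so this is a description of the same values and no test is given. In the OPC table Ncoa4 (ENSMUSG00000056234) lies at chromosome 14 from 31881822 to 31901812, 1.67 Mb from the end of the targeted gene Cacna1d. Of 97 other genes tested within 5 Mb of Cacna1d, 10 were higher and 24 lower in all dKO libraries, 35.1% against the 17% of all genes. The part of sequence differences near the targeted locus in the split of reads was not tested. The neuron table holds no row for this copy, so that the sum could not be formed there, and reads of the copy could not be told from those of Ncoa4.

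**Figure D4:**
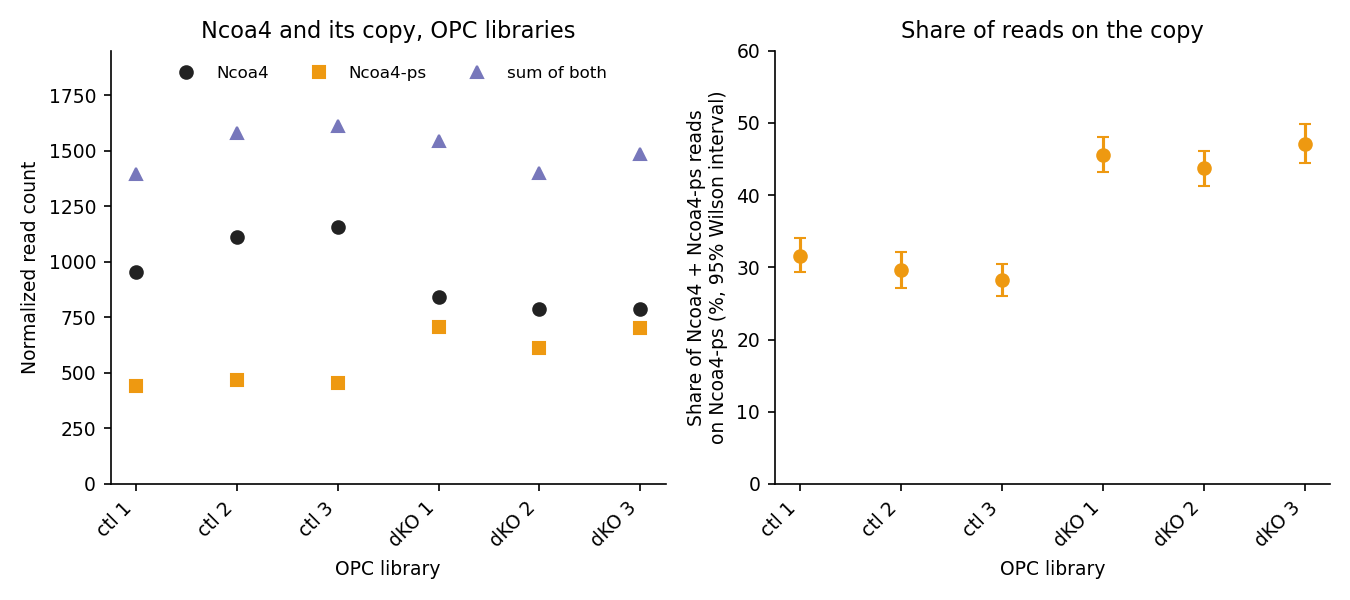
Left, normalized counts of Ncoa4, its copy Ncoa4-ps and their sum in the 6 OPC libraries; right, the share of the reads of both that were counted on Ncoa4-ps, with 95% Wilson intervals. Ncoa4 is lower and the copy higher in each dKO library than in any ctl library, while the sums overlap, and the share is 28.2% to 31.6% in ctl and 43.7% to 47.1% in dKO.

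Ireb2, the RNA-binding sensor, had nearly the same counts in both groups of each fraction. There were 1376, 1362 and 1222 normalized counts in ctl and 1317, 1209 and 1281 in dKO OPC libraries, and 1070, 1048 and 897 in ctl and 1006, 1081 and 928 in dKO neuron libraries. The log2 fold change was -0.057 ± 0.099 in OPCs (SE, adjusted p = 0.86) and 0.00038 ± 0.14 in neurons (SE, adjusted p = 1.0). Within 2 SE these values span -0.26 to 0.14 and -0.28 to 0.28, so differences of this size are not excluded.

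To set the 10 genes in their pathway, 56 other genes of iron uptake, storage, export, control, heme and mitochondrial iron were followed, of which 50 were tested in OPCs and 49 in neurons. None had an adjusted p under 0.05 in edgeR's test. At an unadjusted p under 0.05, 1 was higher and 3 lower in dKO OPCs, 4 of 50 against 11.5% of all genes, and 7 were higher and 1 lower in dKO neurons, 8 of 49 against 9% of all genes. The 7 include Tmprss6, which reached the filter only through its dKO libraries. The median log2 fold change was 0.055 in OPCs and 0.040 in neurons.

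In OPCs the genes of heme synthesis, breakdown and transport had 2 of 13 past this threshold, both lower, against 11.5% of all genes in either direction and 5.27% lower. Of the 13, 6 had a log2 fold change above zero and 7 below, with a median of -0.021. Cpox, which makes protoporphyrinogen, had 4151 ± 807 normalized counts in ctl and 2978 ± 475 in dKO (SD, n = 3 each), a log2 fold change of -0.48. Fech, which inserts iron into the ring as the last step, had 2039 ± 164 and 1685 ± 40.3 (SD, n = 3 each), a log2 fold change of -0.27, with no overlap between the groups, as in 17% of all genes. Ppox, the step between them, had 803 ± 49.9 and 686 ± 5.34 (SD, n = 3 each), also without overlap, and just missed the threshold. Their adjusted p was 0.37, 0.38 and 0.44. Slc25a28, a mitochondrial iron importer, was lower with 705 ± 55.0 in ctl and 563 ± 47.9 in dKO (SD, n = 3 each), a log2 fold change of -0.32 (adjusted p = 0.37), also without overlap. The 14 oligodendrocyte markers had log2 fold changes with a median of -0.42 in OPCs, 5 of them lower at an unadjusted p under 0.05, and their part in these values was not tested. Among 14 other uptake genes 13 had a log2 fold change above zero and 1 passed, the macrophage haemoglobin receptor Cd163, with 74.9 ± 6.62 in ctl and 111 ± 15.8 in dKO (SD, n = 3 each, log2 fold change 0.56, adjusted p = 0.39). In the same libraries all 7 border macrophage, 14 microglia and 12 astrocyte markers tested had a log2 fold change above zero, with medians of 0.71, 1.32 and 1.14, and their part in the uptake genes was not tested. The ferrireductase Steap3 (log2 fold change 0.42), Havcr2 (1.38), the stress factor Nfe2l2 (0.30), the mitochondrial transporter Abcb8 (-0.24) and Glrx5 of iron-sulfur cluster assembly (0.34) did not pass, with adjusted p values of 0.44 to 0.48. The groups of Cd163, Steap3 and Abcb8 did not overlap either. Of the other genes of storage, export and regulation, with 2, 3 and 8 tested, none had an unadjusted p under 0.05 in OPCs.

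In neurons the uptake genes held 4 higher and 1 lower of 14 at an unadjusted p under 0.05, against 9% of all genes in either direction, and 7 of the 14 had a log2 fold change above zero and 7 below. Scara5, a ferritin receptor, had 39.3 ± 23.2 normalized counts in ctl and 125 ± 50.4 in dKO (SD, n = 3 each), a log2 fold change of 1.66, and Slc22a17, a receptor of lipocalin 2, had 1708 ± 438 and 2917 ± 963 (SD, n = 3 each), a log2 fold change of 0.77. In both the groups did not overlap, as in 15.3% of all genes, and the adjusted p was 0.52 each. Steap2 and Steap1, of the metalloreductase family, had log2 fold changes of 0.94 and 1.12, and Lcn2 one of -2.56 on 225 ± 326 and 37.8 ± 22.1 counts (SD, n = 3 each), where the spread of the ctl libraries was larger than their mean. Of the regulators, Bmp6 (log2 fold change 0.87) and Tmprss6 (3.18, on 2.03 ± 3.52 and 19.4 ± 15 counts, SD, n = 3 each) were past the threshold, and of the exporters Flvcr1, known as a heme exporter, with 342 ± 32.9 and 454 ± 48.6 counts (SD, n = 3 each, log2 fold change 0.41). Tmprss6 reached the filter, a mean of 10, only through its dKO libraries, so its call is no support for a difference. Of the genes of storage, heme and mitochondrial iron, with 2, 13 and 10 tested, none passed. Slc46a1 (log2 fold change 0.67) and Slc39a8, a metal importer (-0.66), missed it. Their groups did not overlap, and neither did those of Flvcr1 and Tmprss6. The 8 choroid plexus markers had log2 fold changes with a median of 0.98 in the neuron fraction, 7 of them at an unadjusted p under 0.05, and summed to 8798 to 16320 CPM in ctl and 15520 to 48500 CPM in dKO. None was at 0, and their part in these values was not tested.

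**Figure D5:**
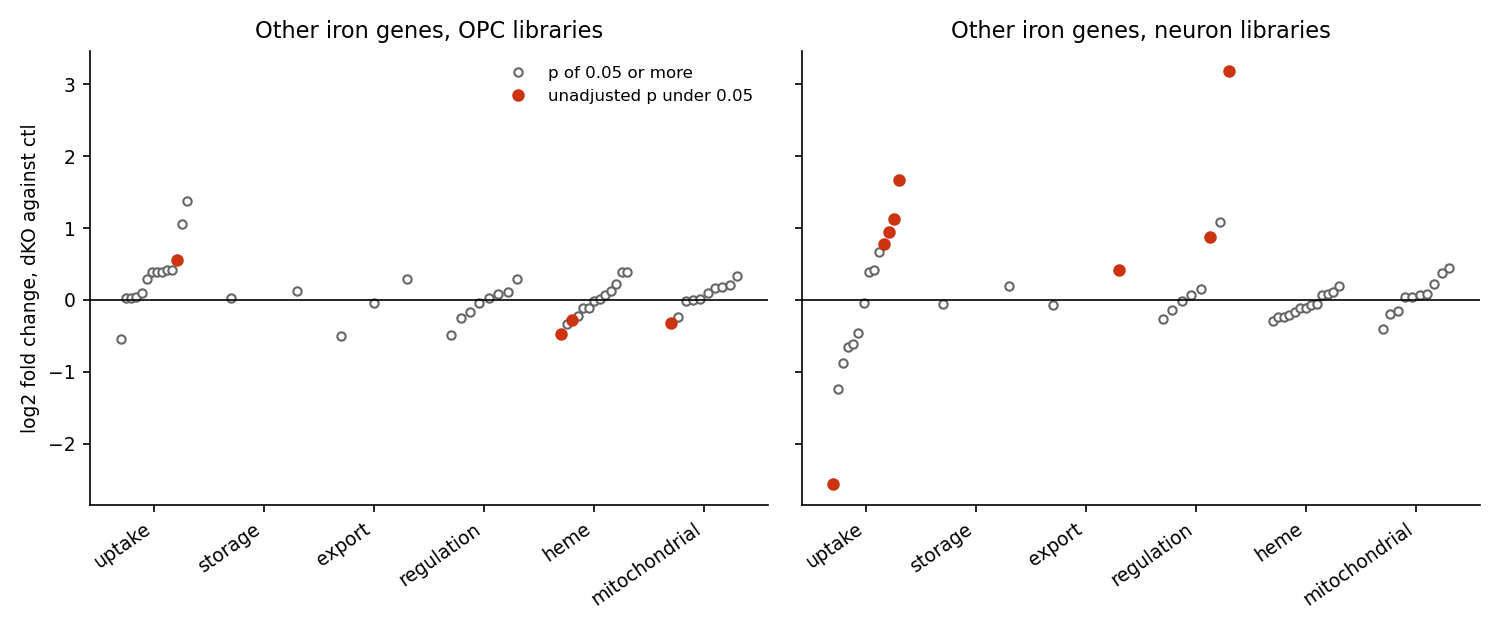
Log2 fold change of dKO against ctl for the other iron genes tested, by gene group, in OPCs (left, 50 genes) and neurons (right, 49 genes), with filled points for an unadjusted p under 0.05. In OPCs 4 genes are filled and in neurons 8, and none has an adjusted p under 0.05.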

How the data were processed

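The 12 RNA-seq libraries were assigned to groups by sample titles and column names. The OPC table the authors deposited holds raw counts of reads on Ensembl genes and FPKM values; their methods name HISAT2, GRCm38 and featureCounts, whereas the submitters' processing notes name mm39. As 2.093% of 28720 gene identifiers have their GRCm38 start and end, gene positions are given as deposited. FPKM was not used. TPM in OPCs was computed from the counts and the deposited gene lengths. For neurons the authors deposited estimated counts and TPM per RefSeq transcript, in columns called cKO for dKO, by a program not given in the sources used here. These were summed per gene and rounded, and 17794 of 17918 genes had a symbol in the RefSeq table of GRCm38.p6; the rest held 0.0441% of counts. The authors' fold changes and p-values were not used.

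Genes that reached an average of 10 normalized counts (TMM) entered the test of each cell type, with edgeR 4.0.16 (R 4.3.3, quasi-likelihood test, Benjamini-Hochberg adjustment). The SE is |log2 fold change| over the root of the F statistic. Because nothing says that libraries of a group were prepared separately beyond the pooled mice, p-values measure the spread between these libraries. Scripts were tested on simulated data. Hairpins and the Ncoa4 copy were read from GENCODE M21 on GRCm38. The reads behind copies of ferritin and Ncoa4 may be split by the counting. The genes and lists were chosen with earlier results of these data known. All 10 genes, their copies by name, and of the other iron genes up to 10 with the smallest p per cell type are named. Alternatives were DESeq2 1.42.0, RLE size factors, no filter, a replicate block, single libraries left out and, in neurons, the top transcript alone. The read share of the Ncoa4 copy, the distances to Cacna1d and 2 unadjusted counts without 1 library were added after the data were seen.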

Additional observations from a re-analysis of the deposited data

How the results depend on the processing

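No iron gene had an adjusted p under 0.05 under DESeq2, RLE size factors, no filter, the replicate block, the top transcript alone or any library left out, so that the number called stayed at 0 in OPCs and 0 in neurons. With an unadjusted p under 0.05 it was 1 in each, without overlap of the groups 2 in OPCs and 1 in neurons, and with an unadjusted p under 0.05 and 1 library left out 3 in OPCs (without dKO replicate 2, 13.3% of all genes) and 1 in neurons (without dKO replicate 1, 8.29% of all genes). Of 210 refitted log2 fold changes, 198 kept their direction. Direction turned for Ireb2 in neurons (DESeq2 -0.0066, RLE size factors -0.0058, no filter -0.0038, top transcript alone -0.010, single libraries left out -0.075 to 0.054), for Trf in neurons (replicate block 0.052, single libraries left out -0.27 to 0.39) and, with single libraries left out, for Fth1 (-0.0053 to 0.52), Slc40a1 (-0.021 to 0.35) and Tfrc (-0.11 to 0.12) in OPCs and for Fth1 summed with its copies (-0.057 to 0.51). The difference of the log2 ratio of Fth1 to Ftl1 lay between -0.20 and 0.25 in OPCs with single libraries left out, and that of Tfrc to Slc40a1 between -0.26 and 0.013 in OPCs and -0.23 and 0.090 in neurons; the cause was not tested. Libraries with the same number did not all deviate together (correlations -0.108, 0.147 and 0.113 in OPCs and 0.166, -0.0758 and -0.0759 in neurons), and the replicate block raised the genes called over all genes from 1 to 27 in OPCs and left 0 in neurons; at an unadjusted p under 0.05 the block gave 2 iron genes in OPCs and 0 in neurons. Within 2 and 10 Mb of Cacna1d, 33.3% and 30.2% of the genes tested in OPCs had groups that did not overlap. Precision is limited by 3 libraries per group. Mice were pooled, and in the neuron fraction markers of endothelial cells, choroid plexus and red cells exceeded those of neurons. The effect of these on precision was not tested.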
